A study of Arabidopsis thaliana with 3 samples.

Results

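The sporopollenin genes of Arabidopsis thaliana studied here are the 9 genes ACOS5, CYP703A2, CYP704B1, MS2, PKSA, PKSB, TKPR1, TKPR2 and ABCG26. They were taken by locus identifier from the deposited tables, as 9 of 26810 genes listed in any library, and each was listed above 0 in all 3 libraries. The libraries came from buds of immature inflorescences of dcl1-7 plants, harvested at about 4 weeks under days of 16 h light and 8 h dark, with no treatment. There were 1 GMUCT library and 2 RNA-seq libraries, all made from polyA RNA and read as strand-specific reads of 50 nt. GMUCT captures polyA RNAs that lack a cap by their 5′ end, so it reads transcripts that have been decapped or cut, whereas RNA-seq reads the whole pool of polyA RNA. All libraries share the dcl1-7 allele, a weak allele of the Dicer gene DCL1, and no library of another genotype was analysed here. The values below therefore compare 2 assays within 1 genotype and say nothing of what the allele does to these genes.

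Sporopollenin is the tough polymer of exine, the outer wall of pollen. Its precursors are made in the tapetum, the cell layer that lines the anther locule and feeds the developing microspores, and are then exported to the microspore surface. In the accepted pathway fatty acids are hydroxylated and activated to CoA esters, polyketide synthases extend them to alkyl pyrones, reductases convert the pyrones to hydroxylated products, and an ABC transporter carries them out of the tapetal cell. A separate reductase turns fatty acyl groups into fatty alcohols.

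Of the 9 genes 8 had a lower RPKM in GMUCT than in RNA-seq, and TKPR1 alone had a higher one. RPKM is scaled within each library, so these ratios place a gene relative to other genes. They do not give the share of its RNA that is uncapped. GMUCT lay below both RNA-seq libraries for 8 genes, a position held by 50.2% of all 20214 tested genes, and above both for 1 gene, a position held by 45% of tested genes. The same 8 genes were at least 2-fold lower in GMUCT than in each RNA-seq library, which 19.6% of tested genes were, and TKPR1 was at least 2-fold higher, as were 21.5%. The median log2 ratio of GMUCT to RNA-seq over the 9 genes was -1.67, against -0.07 over all tested genes, on the scale log2(RPKM + 0.5). By limma with Benjamini-Hochberg adjustment over all tested genes, 8 of the 9 were lower and 1 was higher, with adjusted p-values from 0.00422 to 0.0061. That test called 36.9% of all tested genes lower and 32.1% higher, so passing it is common in this comparison. It rests on 1 GMUCT library, which was assumed to vary like the RNA-seq libraries, and on 1 residual degree of freedom. Whether different plants gave RNA-seq libraries 1 and 2 is not stated, and the p-values then reflect a spread between samples that could be technical.

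**Figure D1:**
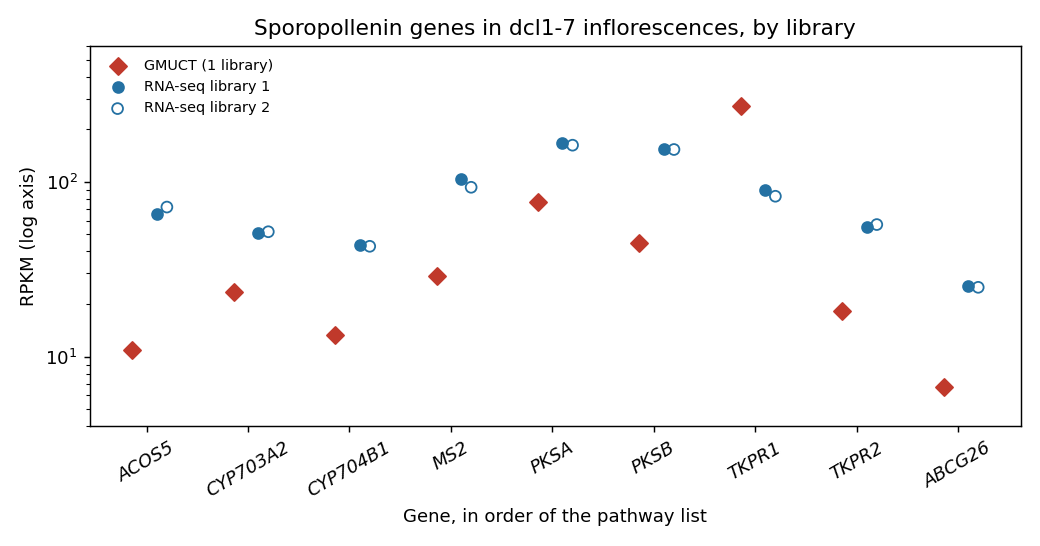
RPKM on a log axis for each of the 9 genes, with a diamond for the GMUCT library and circles for the 2 RNA-seq libraries. The GMUCT value lies below both RNA-seq values for 8 genes and above both for TKPR1, at 271.15 RPKM against 90.26 and 82.76 RPKM.

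ACOS5 (AT1G62940), the acyl-CoA synthetase that activates the fatty acid substrates, stood lowest. It had 10.86 RPKM in GMUCT, against 65.26 and 71.76 RPKM in RNA-seq libraries 1 and 2. GMUCT was thus 15.9% of the RNA-seq mean of 68.5 ± 4.60 RPKM (SD, n = 2), or -2.60 in log2 ratio (SE 0.09; limma adjusted p = 0.00458). ACOS5 was the only one of the 9 to be at least 4-fold lower in GMUCT, a size reached by 3.02% of tested genes, and none of the 9 was 4-fold higher, as were 10.4%. Of all tested genes 0.46% had a ratio as low as that of ACOS5 or lower.

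The hydroxylases lay closer to their RNA-seq values than ACOS5 did. CYP703A2 (AT1G01280), a cytochrome P450 that hydroxylates medium-chain fatty acids within the chain, had 23.56 RPKM in GMUCT, against 50.74 and 51.84 RPKM in RNA-seq (log2 ratio -1.11, SE 0.05; limma adjusted p = 0.00513). CYP704B1 (AT1G69500), which hydroxylates long-chain fatty acids at the end of the chain, had 13.25 RPKM in GMUCT, against 43.53 and 42.79 RPKM in RNA-seq (log2 ratio -1.67, SE 0.05; limma adjusted p = 0.00451). Both genes were well separated between the assays, while their RNA-seq libraries were close together. Per kilobase of exon CYP703A2 exceeded CYP704B1 1.54-fold in GMUCT, against 1.01-fold and 1.05-fold in RNA-seq.

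MS2 (AT3G11980), the plastid reductase that makes fatty alcohols, had 28.79 RPKM in GMUCT, against 104.35 and 93.14 RPKM in RNA-seq. GMUCT was 29.2% of the RNA-seq mean of 98.7 ± 7.93 RPKM (SD, n = 2), or -1.76 in log2 ratio (SE 0.10; limma adjusted p = 0.0061). MS2 had the widest gap between the RNA-seq libraries of the 9 genes, and that gap was far smaller than the one to GMUCT.

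PKSA (AT1G02050, symbol LAP6) and PKSB (AT4G34850, symbol LAP5) are the polyketide synthases that build the alkyl pyrones, and they were the most abundant of the 9 in RNA-seq. PKSA had 76.57 RPKM in GMUCT, against 167.2 and 162.2 RPKM in RNA-seq (log2 ratio -1.10, SE 0.05; limma adjusted p = 0.0055). PKSB had 44.6 RPKM in GMUCT, against 155.15 and 153.23 RPKM in RNA-seq (log2 ratio -1.78, SE 0.05; limma adjusted p = 0.00422). Per kilobase of exon PKSA was 1.6-fold PKSB in GMUCT but 1.01-fold and 0.987-fold in the RNA-seq libraries. The pair was thus level in RNA-seq, while the difference in GMUCT rests on 1 library with no replicate to set the pair apart. Their coding sequences were 65.9% identical over 1162 aligned bases, with no identical run longer than 14 bases in the alignment.

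TKPR1 (AT4G35420, symbol DRL1) and TKPR2 (AT1G68540) reduce the tetraketide pyrones made by the synthases, and they lay on opposite sides. TKPR1 had 271.15 RPKM in GMUCT, against 90.26 and 82.76 RPKM in RNA-seq. That is 3.13-fold the RNA-seq mean of 86.5 ± 5.30 RPKM (SD, n = 2), or 1.64 in log2 ratio (SE 0.08; limma adjusted p = 0.0056). TKPR2 had 18.34 RPKM in GMUCT, against 54.88 and 56.98 RPKM in RNA-seq (log2 ratio -1.58, SE 0.05; limma adjusted p = 0.00458). Within each library TKPR1 was 14.8-fold TKPR2 in GMUCT, against 1.64-fold and 1.45-fold in RNA-seq, per kilobase of gene as deposited. Per kilobase of exon the same ratios were 18.3 in GMUCT, against 2.04 and 1.80 in RNA-seq. The coding sequences of the pair were 62.5% identical over 920 aligned bases, and no 50 nt window of either transcript occurs elsewhere in the TAIR10.1 genome.

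ABCG26 (AT3G13220), the transporter of the plasma membrane that exports the products from the tapetum, was the least abundant of the 9 in both assays. It had 6.73 RPKM in GMUCT, against 25.32 and 24.92 RPKM in RNA-seq (log2 ratio -1.83, SE 0.06; limma adjusted p = 0.00458). Fewer cells of a type and less RNA per cell cannot be told apart in any of these values, since whole buds were used.

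**Figure D2:**
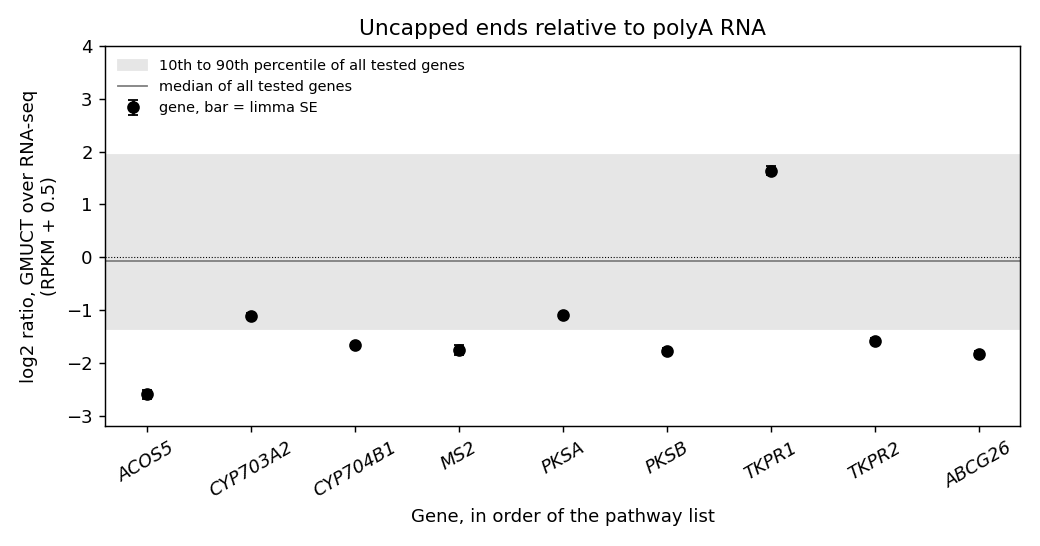
Log2 ratio of GMUCT to RNA-seq for each gene (points, with the limma SE as bars) over the range from the 10th to the 90th percentile of all tested genes (grey band) and their median (grey line). Of the 9 genes 6 lie below the band, whose lower edge is at -1.36, CYP703A2 and PKSA lie inside it, and so does TKPR1, at 1.64 under an upper edge of 1.93.

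TKPR1 stood apart from the rest of the pathway by more than the rest differed among themselves. Its log2 ratio was 2.74 above that of PKSA, the next highest, while the other 8 genes spanned 1.5 and had an SD of 0.47 around a median of -1.71. A ratio as high as that of TKPR1 was reached by 12.6% of all tested genes. Of the RPKM summed over the 9 genes, per kilobase of gene as deposited, TKPR1 made up 54.9% in GMUCT, against 11.9% and 11.2% in RNA-seq libraries 1 and 2. Without TKPR1 the sum on that scale was 223 RPKM in GMUCT, against 666 and 657 RPKM in RNA-seq. The spread between the RNA-seq libraries was small beside these differences. The log2 ratio of RNA-seq library 1 to library 2 ran from -0.14 for ACOS5 to 0.16 for MS2, with a median of 0.02. Across all tested genes the median of that ratio was 0.02 and its SD 0.22. Library 1 was the higher for 6 of the genes and library 2 for 3.

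The order of the genes differed between the assays. The deposited RPKM values behave as reads per kilobase of the whole gene, introns included, so levels of different genes are compared here after rescaling to the exon length of the longest annotated transcript. On that scale the GMUCT order was TKPR1 (399 RPKM), PKSA (81.0), PKSB (50.6), MS2 (39.3), CYP703A2 (24.8), TKPR2 (21.8), CYP704B1 (16.1), ACOS5 (14.5) and ABCG26 (8.67), with no replicate to set neighbours apart. GMUCT captures RNAs by their 5′ end, so its reads need not grow with length, which was not tested. By estimated GMUCT reads, without scaling by length, MS2 (1614) stood above PKSB (1408), and the other places were unchanged. In RNA-seq the order of means was PKSB (175 RPKM), PKSA (174), MS2 (135), TKPR1 (127), ACOS5 (91.3), TKPR2 (66.4), CYP703A2 (53.9), CYP704B1 (52.4) and ABCG26 (32.4). The values of PKSB and PKSA overlapped between the RNA-seq libraries, and so did those of MS2 and TKPR1, while every other pair of neighbours in that order was separated. ACOS5 held rank 8 in GMUCT and rank 5 in RNA-seq, and TKPR1 held rank 1 in GMUCT and rank 4 in RNA-seq. All 9 genes were well expressed, from percentile 82.3 of tested genes for ABCG26 to 98.0 for PKSA in mean RNA-seq RPKM as deposited. In GMUCT they ran from percentile 46.7 for ABCG26 to 98.8 for TKPR1. Estimated reads were 396 to 8883 per gene in GMUCT, 1410 to 5537 in RNA-seq library 1 and 655 to 2334 in library 2, so counting error is small beside the differences between the assays.

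The gene models differ in length and in number of exons. TKPR1 has the shortest transcript of the 9, at 1147 nt in 6 exons over a gene of 1687 nt, and ABCG26 has the longest, at 2351 nt in 9 exons over 3029 nt. TKPR2 has 1341 nt in 4 exons, ACOS5 1699 nt in 6 exons, and CYP704B1 1743 nt in 6 exons. CYP703A2 and PKSA have 2 exons each, PKSB has 3 and MS2 has 9. The GC content was 43.4% for TKPR1 and 43.3% for ACOS5. The part of exon number and GC content in the ratios was not tested beyond removing their trends over all genes, which left TKPR1 at 1.83 for exon number and 1.86 for GC content.

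**Figure D3:**
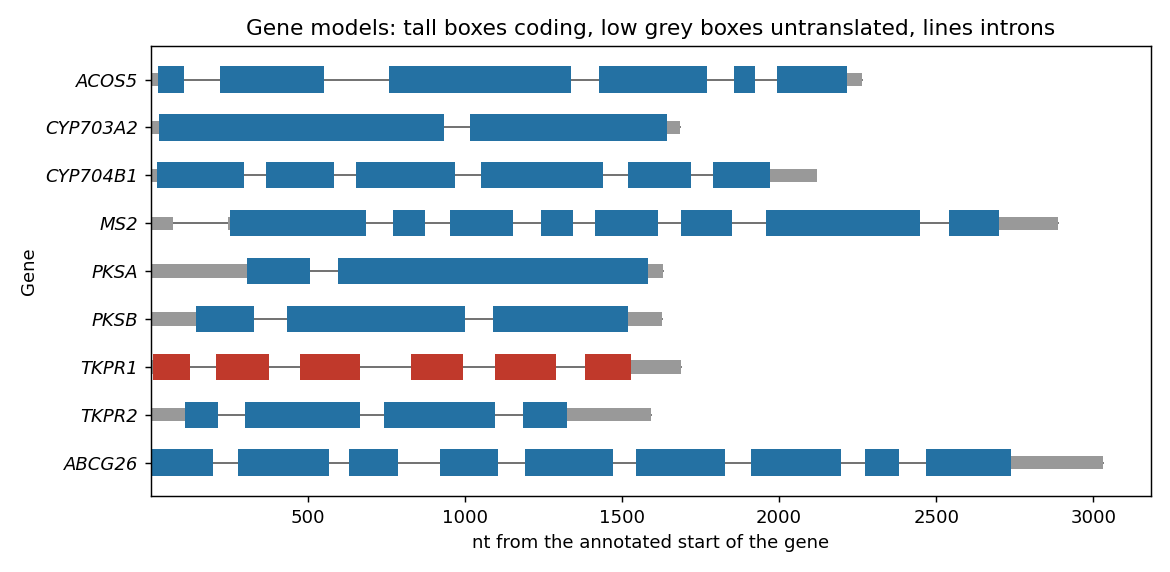
Annotated exons of the longest transcript of each gene, drawn to scale in nt from the annotated start of the gene, with coding parts as tall boxes (red for TKPR1) and untranslated parts as low grey boxes. The 9 genes hold 2 to 9 exons, and TKPR1 has the shortest transcript, 1147 nt.

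Short transcripts tended to have higher ratios across all tested genes. The median log2 ratio was 0.27 over the 2338 tested genes in the length class of TKPR1, which starts at 1000 nt. It was 0.10 over the 2541 genes in the next class, that of TKPR2 and PKSB, which ends under 1500 nt. It was -0.01 from 1500 to under 2000 nt, where ACOS5, CYP703A2, CYP704B1 and PKSA fall, and -0.28 from 2000 to under 2500 nt, the class of MS2 and ABCG26. With the trend in transcript length removed, the log2 ratio of TKPR1 was 1.35 (limma adjusted p = 0.00534) and those of the other 8 genes ran from -2.65 to -1.20. Each of the 9 genes kept its direction with the length trend removed.

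**Figure D4:**
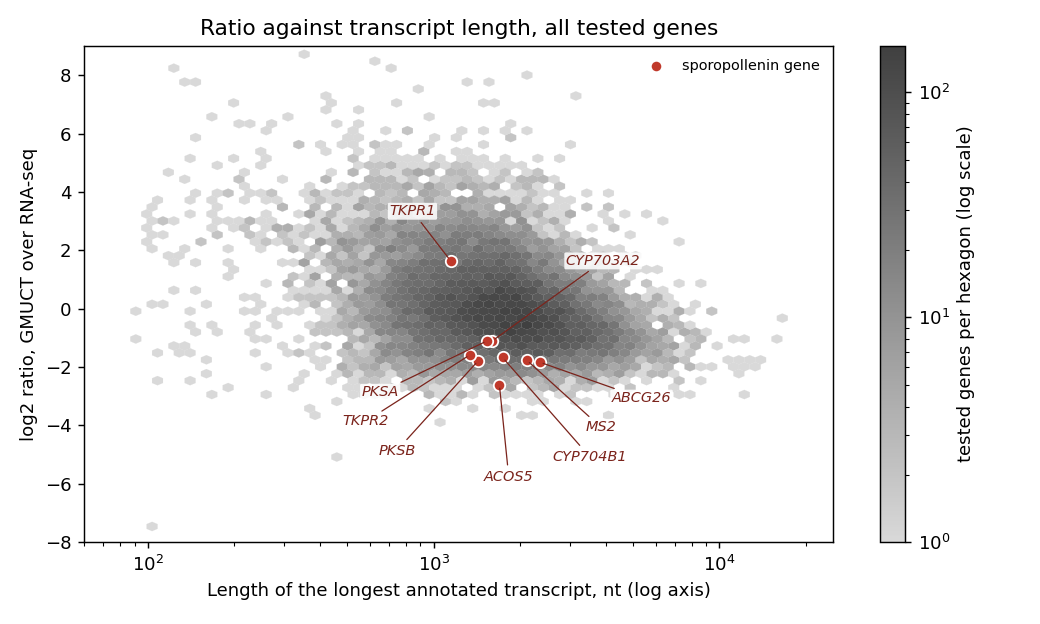
Log2 ratio of GMUCT to RNA-seq against the length of the longest annotated transcript (log axis) for all tested genes with a gene model (grey hexagons, darker where there are more genes) and the 9 genes (red points). The cloud falls with length, TKPR1 lies in its upper part at 1147 nt, and the other 8 lie along its lower part between 1341 and 2351 nt.

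Overlap with neighbouring genes was small. TKPR1 shares 70 nt with AT4G35410 on the opposite strand, which had 8.11 RPKM in GMUCT, against 5.9 and 6.04 RPKM in RNA-seq. PKSB shares 89 nt with AT4G34840 on the same strand and 84 nt with AT4G34860 on the opposite strand, and ABCG26 shares 172 nt with AT3G13210 on the opposite strand. All 4 neighbours were less abundant than the gene they overlap in every library. MS2 was the only one of the 9 with 50 nt windows that occur elsewhere in the genome, 0.532% of them.

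The sequences just before the annotated gene starts are shown for TKPR1, the only gene with the higher ratio, and for TKPR2, its partner reductase, and ACOS5, the gene at the opposite end. Each is the 200 bases before the annotated start in RefSeq's TAIR10.1, read 5′ to 3′ on the strand of the gene. The windows are chr4:16835620-16835819 on the minus strand for TKPR1, chr1:25719758-25719957 on the plus strand for TKPR2 and chr1:23310332-23310531 on the plus strand for ACOS5. Capitals mark CANNTG, the E-box letters that basic helix-loop-helix factors such as the tapetal AMS bind.
TKPR1: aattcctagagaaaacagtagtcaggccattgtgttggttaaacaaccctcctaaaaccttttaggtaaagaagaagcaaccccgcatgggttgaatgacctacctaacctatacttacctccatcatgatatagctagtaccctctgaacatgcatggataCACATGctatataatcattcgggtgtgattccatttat
TKPR2: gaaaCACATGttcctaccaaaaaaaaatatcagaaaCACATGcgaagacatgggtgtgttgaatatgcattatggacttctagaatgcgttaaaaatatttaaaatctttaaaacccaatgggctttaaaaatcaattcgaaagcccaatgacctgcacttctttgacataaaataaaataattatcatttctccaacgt
ACOS5: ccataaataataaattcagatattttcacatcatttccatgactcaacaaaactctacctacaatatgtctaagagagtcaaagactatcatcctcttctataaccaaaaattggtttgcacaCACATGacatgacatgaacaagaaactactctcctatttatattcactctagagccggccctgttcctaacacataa
All marked sites in these windows read CACATG, with 2 in TKPR2 and 1 each in TKPR1 and ACOS5. CANNTG, which reads the same on both strands, was found in the window of 6 of the 9 genes, against 47.3% of 27443 protein-coding genes. CACATG, a form of CANNTG searched on both strands after these windows were seen, was found in 3 of the 9, against 8.99%. CCAACC, a motif bound by MYB factors and also searched on both strands, was in none of the 9 windows, against 5.16% of all. These letters are present in both the gene with the higher ratio and genes with lower ratios, and a match is not a bound site.

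Transcription factors of the tapetum went both ways. Of 9 tested 5 were lower in GMUCT by limma, 1 was higher and 3 did not pass, with a median log2 ratio of -0.52. The 2-fold rule put 1 lower and 1 higher, against 19.6% and 21.5% of all tested genes. AMS, a helix-loop-helix factor that binds promoters of sporopollenin genes, was lowest, with 23.54 RPKM in GMUCT, against 62.42 and 59.95 RPKM in RNA-seq (log2 ratio -1.36, limma adjusted p = 0.005). DYT1, which acts early in the tapetum, had the highest ratio without passing, at 1.96 RPKM in GMUCT, against 0.35 and 0.9 RPKM in RNA-seq (log2 ratio 1.17, limma adjusted p = 0.0969). MS1, a regulator of late tapetum development, was the 1 that passed on the higher side, at 5.86 RPKM in GMUCT, against 2.58 and 2.94 RPKM in RNA-seq (log2 ratio 0.97, limma adjusted p = 0.0187). By the 2-fold rule DYT1 was higher and MS1 was not, and 2 factors, MS1 and MYB80, were higher at an unadjusted limma p under 0.05. MYB80 had 5.79 RPKM in GMUCT, against 3.08 and 2.14 RPKM in RNA-seq (log2 ratio 1.03). The RNA-seq values of DYT1 were under the filter of 1 RPKM, so it entered only through GMUCT and its direction was fixed by the filter. With the length trend removed DYT1 had a log2 ratio of 0.35 and MS1, at 1.19, was the highest.

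Genes for other steps of the pollen wall were mostly called lower by limma, a test that called 36.9% of all tested genes lower. Of 14 genes for exine pattern and the callose wall 9 were lower in GMUCT, 1 was higher and 4 did not pass (median log2 ratio -0.57). Only 2 of the 14 were lower by the 2-fold rule and 1 was higher, against 19.6% and 21.5% of all tested genes. CALS5, the callose synthase of the microspore wall, had 1.5 RPKM in GMUCT, against 5.63 and 5.02 RPKM in RNA-seq (log2 ratio -1.54, limma adjusted p = 0.00902). With the length trend removed CALS5 had a log2 ratio of -0.52, and QRT1, at -1.52, was the lowest of these genes. INP1, needed for pollen apertures, was the exception, with 20.56 RPKM in GMUCT, against 0.4 and 0.28 RPKM in RNA-seq (log2 ratio 4.65, limma adjusted p = 0.00458). Its ratio rests on very low RNA-seq values, and it passed the filter only through GMUCT.

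Of 11 genes for phenolamides, lipid transfer and other ABCG transporters of the tapetum and pollen coat, 8 were lower in GMUCT by limma and 3 did not pass. None was higher, also at an unadjusted limma p under 0.05 and by the 2-fold rule, and the median log2 ratio was -1.11. The 2-fold rule put 7 of the 11 lower, against 19.6% of all tested genes. ABCG31, a transporter of the pollen coat, was lowest, with 2.33 RPKM in GMUCT, against 10.83 and 9.59 RPKM in RNA-seq (log2 ratio -1.92, limma adjusted p = 0.00709). AT5G52160 was at the other end without passing, with 195.08 RPKM in GMUCT, against 124.57 and 148.97 RPKM in RNA-seq (log2 ratio 0.52, limma adjusted p = 0.0725). Both ends depended on length: with that trend removed ABCG31 had -1.09 and AT5G52160 -0.31, while A9 was lowest at -2.51 and ABCG16 highest at 0.63.

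Genes listed for fatty acid supply were also mostly called lower by limma, which called 36.9% of all tested genes lower. Of 13 genes 10 were lower in GMUCT, 1 was higher and 2 did not pass (median log2 ratio -0.70). The 2-fold rule put 6 lower, LACS1, LACS2 and LACS4 among them, and 0 higher, against 19.6% and 21.5% of all tested genes. LACS2, an acyl-CoA synthetase of cutin synthesis, had 11.02 RPKM in GMUCT, against 42.0 and 45.24 RPKM in RNA-seq (log2 ratio -1.94, limma adjusted p = 0.00491). FAB1, a plastid ketoacyl-ACP synthase, was the 1 higher gene, with 57.86 RPKM in GMUCT, against 34.81 and 35.96 RPKM in RNA-seq (log2 ratio 0.70, limma adjusted p = 0.00767).

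**Figure D5:**
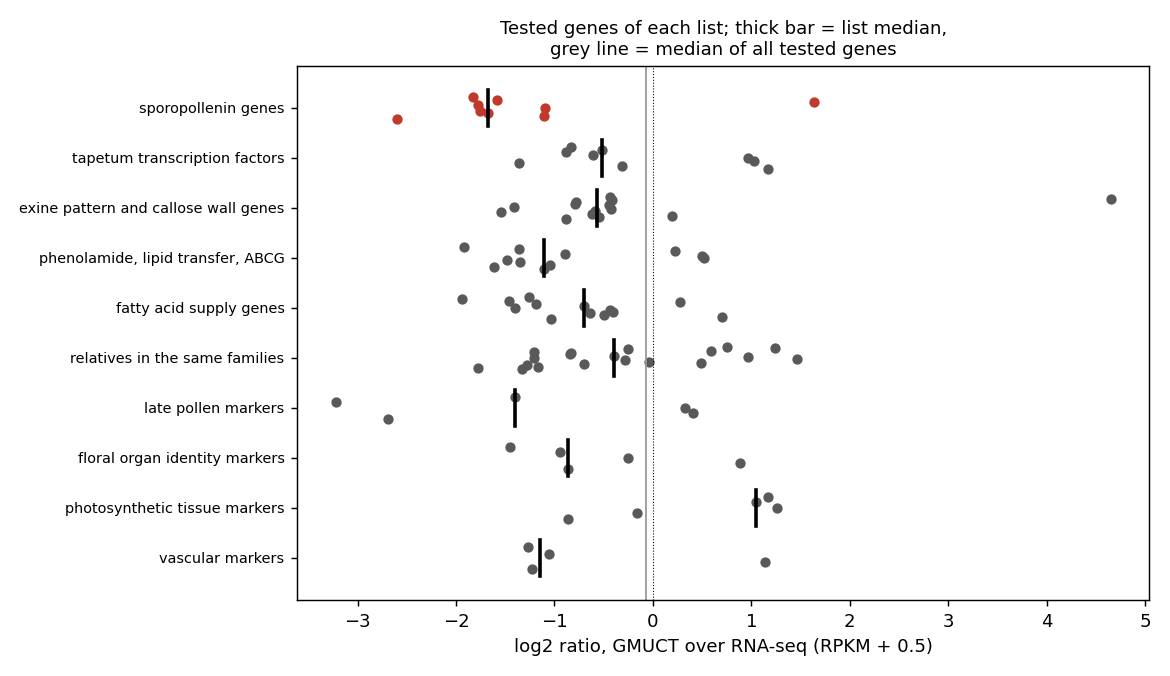
Log2 ratio of GMUCT to RNA-seq for the tested genes of each list (points), with the list median (thick bar), the median of all tested genes (grey line) and 0 (dotted line). The 9 sporopollenin genes (red) have a median of -1.67, and TKPR1 is their only gene right of 0. The late pollen markers come next at -1.40, a place that depends on the setting. With the length trend removed their median was -0.74, behind the phenolamide list (-1.09), floral organ identity markers (-0.85) and fatty acid supply genes (-0.77). With the exon number trend removed it was -1.72, below the -1.49 of the 9 genes.

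Relatives of the 9 genes in the same enzyme and transporter families went both ways. Of 25 relatives 19 were tested, and 10 were lower in GMUCT by limma, 6 higher and 3 did not pass (median log2 ratio -0.39). The 2-fold rule put 19.6% of all tested genes lower and 21.5% higher, and 6 and 2 of the tested relatives. Those of ACOS5 were all lower: 4CL2, a coumarate CoA ligase, had 2.22 RPKM in GMUCT, against 8.83 RPKM in both RNA-seq libraries (log2 ratio -1.78, limma adjusted p = 0.00582), and 4CL1, 4CL3, 4CL5 and OPCL1 lay between -1.33 and -0.70. Chalcone synthase, the flavonoid relative of PKSA and PKSB, had 555.34 RPKM in GMUCT, against 1261.98 and 1305.67 RPKM in RNA-seq (log2 ratio -1.21, limma adjusted p = 0.0113). Among the relatives of TKPR1 and TKPR2, DFR was higher (log2 ratio 0.97, limma adjusted p = 0.0308), with 3.53 RPKM in GMUCT, against 1.37 and 1.77 RPKM in RNA-seq. CCR2 was lower (-0.84, limma adjusted p = 0.0226) and CCR1 did not pass (-0.39, limma adjusted p = 0.0506). Of the fatty acid reductases related to MS2, FAR7 had the highest ratio of the tested relatives, with 2.42 RPKM in GMUCT, against 0.61 and 0.52 RPKM in RNA-seq (log2 ratio 1.46, limma adjusted p = 0.00645). Its RNA-seq values were under the filter of 1 RPKM, so FAR7 entered the test only through GMUCT and could only lie on the higher side. The other tested reductases of that family, FAR1 and CER4, had log2 ratios of -0.04 and -0.28. FAR1 had 21.95 RPKM in GMUCT, against 22.93 and 22.19 RPKM in RNA-seq. CYP704A2, the tested relative of CYP704B1, had a log2 ratio of 0.49. FAR4, FAR5, FAR6 and FAR8, along with BAN and CYP704A1, were too low to be tested. ABCG25, ABCG22 and ABCG13 were higher, at log2 ratios of 1.24, 0.75 and 0.59, whereas ABCG12 and ABCG11 were lower, at -1.21 and -0.83. ABCG14 did not pass, at -0.25.

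The genes with profiles nearest to the median profile of the 9, by Euclidean distance over the 3 libraries on the log2 scale, were AT5G55180, AT2G40590, ATKRS-1, P5CS1 and GF14 PHI. Their distances were 0.05 to 0.10, and AT5G55180, the nearest, had 23.43 RPKM in GMUCT, against 67.39 and 71.02 RPKM in RNA-seq. With 3 libraries this likeness is only of level and ratio.

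Markers of other cells in the bud differed between the assays as well, where limma called 36.9% of all tested genes lower and 32.1% higher. Of 5 late pollen markers 3 were lower in GMUCT by limma and 2 did not pass, and they summed to 173 RPKM in GMUCT, against 385 and 397 RPKM in RNA-seq. The lowest was RALF4 (log2 ratio -3.22) and the highest AGP6 (0.41). None of them was higher, also at an unadjusted limma p under 0.05 and by the 2-fold rule. Of 5 floral organ identity markers 4 were lower and 1 was higher, summing to 353 RPKM in GMUCT, against 418 and 416 RPKM in RNA-seq, with log2 ratios between -1.45 for SEP3 and 0.89 for AP3, the higher one. Of 5 photosynthetic markers 3 were higher and 2 did not pass, summing to 8005 RPKM in GMUCT, against 6715 and 6675 RPKM in RNA-seq, and 1 was lower at an unadjusted limma p under 0.05 but none by the 2-fold rule. Their log2 ratios lay between -0.86 for RBCS1A and 1.26 for LHCB2.1. Of 4 vascular markers 3 were lower and 1 did not pass, summing to 27.2 RPKM in GMUCT, against 56.8 and 57.3 RPKM in RNA-seq, and VND7, with a log2 ratio of 1.14, was higher by the 2-fold rule and at an unadjusted limma p under 0.05. VND7 had 2.21 RPKM in GMUCT, against 0.54 and 0.96 RPKM in RNA-seq. It thus entered the test only through GMUCT, and its direction was fixed by the filter. ATHB8 was lowest, at -1.27, but had -0.75 with the length trend removed, where SUC2 was lowest at -0.91. None of these markers was at 0 in any library, and transcripts that mark floral organs, pollen, green tissue and vascular tissue were all detected. The tapetum markers A9, AMS, A6 and MS1, from the lists above, had log2 ratios of -1.48, -1.36, -0.43 and 0.97. The part of other cells in the ratios of the 9 genes was not tested. Across tested genes Pearson's r on the log2 scale was 0.717 between GMUCT and the RNA-seq mean and 0.993 between the RNA-seq libraries, genes not being independent replicates. DCL1 itself had 7.57 RPKM in GMUCT, against 16.04 and 15.18 RPKM in RNA-seq, which does not check the allele.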

How the data were processed

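RPKM values per gene were deposited by the authors in 1 table per library, without a header. Per the submitters' processing notes, reads were trimmed with cutadapt 1.4.2 and aligned with STAR 2.4.0 to TAIR10. The sources used here do not give the counting tool, annotation, strand setting or read totals. RPKM of low genes with introns times gene length fell within 0.1 of a whole read for 74.6%, 66.4% and 56.0% of values in GMUCT, RNA-seq 1 and RNA-seq 2 when the whole gene span was used, and for 23.7%, 25.4% and 25.3% when exon length was used, where chance gives 20%. The values were therefore read as per kilobase of gene span. The best steps gave about 19.4, 18.4 and 8.68 M reads (M, mega). For RNA-seq 2 a step at a multiple of that depth scored alike, and the lower depth was taken. These depths are approximate, so no counting intervals were made. Gene models and sequences came from RefSeq's TAIR10.1, which held 26459 of 26810 identifiers. The deposited tables hold no coordinates.

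A gene missing from a table was set to 0. Genes entered where the mean of GMUCT and the RNA-seq mean was at least 1 RPKM. A gene under that level in either assay entered only through a higher value in the other, which fixed its direction. The test was limma 3.58.1 (R 4.3.3, eBayes with trend) on log2(RPKM + 0.5), a scale that understates the change of low genes, two-sided, with Benjamini-Hochberg adjustment at 0.05. The 2-fold rule used RPKM without a pseudocount. Named genes were the 9 members, the tested genes with the highest and lowest log2 ratio of each other list, and the 5 nearest profiles. MS1, MYB80, A6, the genes at the ends of lists with the length trend removed, and the other relatives were named outside that rule, after their values were seen. The members and lists were chosen with earlier results of these data known. Alternatives changed the pseudocount, filter, centring, fold threshold, moderation, length scale and trends with length, GC content or exon number, and left out each RNA-seq library. The procedure was also run on simulated data, in which the GMUCT library was given the same spread as the RNA-seq libraries. That run therefore could not test the assumption that GMUCT varies like RNA-seq. Other steps ran in Python 3.11.15 with pandas 2.3.3, numpy 2.4.6, statsmodels 0.14.6 and Biopython 1.88.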

Additional observations from a re-analysis of the deposited data

How the results depend on the processing

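The direction and the side of the threshold of all 9 genes held under each of the 10 alternatives with a test and, in direction, without either RNA-seq library. The number called stayed at 8 lower and 1 higher. The median log2 ratio of the 9 was -1.67 and moved to -1.63 with a pseudocount of 1, -1.59 when centred on the median of all tested genes, -1.57 with the length trend removed and -1.49 with the exon number trend removed, the last, like rescaling to exon length, chosen after seeing the data. Leaving out RNA-seq replicate 1 or 2 gave -1.65 and -1.68, with no test since no residual degree of freedom was left. With a fold threshold of 4, 1 gene was lower (ACOS5) and 0 were higher. Over all tested genes the number at least 2-fold higher was 4351, against 9013 without a filter, 2591 with a filter at 5 RPKM and 2103 at 4-fold. The number at least 2-fold lower was 3963, against 4170 without a filter, 2916 with a filter at 5 RPKM and 611 at 4-fold. Genes at least 2-fold higher thus outnumbered the lower ones in the main setting but not with the filter at 5 RPKM. Of 108 values of list medians under the alternatives 34 moved and 0 reversed in sign. With the exon number trend removed the late pollen markers had a median of -1.72, below the -1.49 of the 9 genes. Their median was -0.74 with the length trend removed. No paired analysis was possible because the groups share only replicate number 1. A single GMUCT library limits every ratio, and the precision of the GMUCT values cannot be measured from these data.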
